A study of Mus musculus with 13 samples.

Results

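The genes described here encode the death receptors of the tumour necrosis factor family, 1 of their ligands, and the enzymes and pore proteins of necroptosis and pyroptosis. They are Fas, Tnfrsf1a, Tnfsf10, Tnfrsf10b, Casp8, Ripk3, Mlkl, Zbp1, Casp1 and Gsdmd, chosen by symbol. All 10 were found among the 22048 genes of the count table, each as a single Ensembl gene, and all 10 passed the filter on low counts that left 13831 genes to test. RNA was sequenced from the whole livers of 13 mice, and the study's title concerns hepatic stellate cells, neurotrophin-3 and hepatocyte proliferation. Stellate cells lie beside the sinusoids of the liver and store vitamin A. The 6 control livers (3 male, 3 female) were from mice not depleted of stellate cells. A further 4 livers (1 male, 3 female) were depleted of these cells. The remaining 3 livers (2 male, 1 female) were not depleted and were taken 72 h after partial hepatectomy, an operation that excises some liver lobes and makes the rest regrow. The labels give no strain, genotype, age or means of depletion, and no sham operation, so effects of the depleting procedure or of surgery cannot be told apart from those of cell loss or regrowth. The labels number the livers of each group as replicates without saying how the animals were housed or processed, and p-values measure the spread between these livers.

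Death receptors are membrane proteins with a cytoplasmic death domain. When Fas or the first tumour necrosis factor receptor is engaged, adaptor proteins recruit caspase-8, which starts apoptosis, and hepatocytes are known for their sensitivity to Fas. Where caspase-8 is inactive, the kinase RIPK3 can phosphorylate MLKL, which then breaches the plasma membrane in the lytic death called necroptosis. ZBP1, a sensor of Z-form nucleic acid, can engage RIPK3 without a death receptor. In pyroptosis, an inflammasome activates caspase-1, which cleaves gasdermin D into a membrane pore. Messenger RNA levels do not show whether any of these proteins is activated.

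Promoter sequences are shown for Fas, Ripk3, Casp1 and Tnfsf10, some of the members whose changes the results turn on. Fas, Tnfrsf1a and Zbp1 were higher in both conditions. Ripk3, Casp1, Tnfsf10, Mlkl and Zbp1 separated the depleted from the hepatectomised livers. RefSeq windows on GRCm38.p6, from 250 bases before to 50 after a transcription start, were matched by symbol for 7 of the 10 members, namely Fas, Tnfrsf1a, Tnfsf10, Ripk3, Mlkl, Casp8 and Casp1. The 100 bases before the start are given 5′ to 3′ on the gene's own strand, with matches to the searched motifs in capitals.
Fas (chr19:34290559-34290658, plus strand): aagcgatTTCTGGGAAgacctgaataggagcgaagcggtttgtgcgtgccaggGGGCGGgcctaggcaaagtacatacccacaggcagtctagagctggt
Ripk3 (chr14:55788858-55788957, minus strand): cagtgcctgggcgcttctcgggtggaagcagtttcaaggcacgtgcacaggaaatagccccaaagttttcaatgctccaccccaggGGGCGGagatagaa
Casp1 (chr9:5298417-5298516, plus strand): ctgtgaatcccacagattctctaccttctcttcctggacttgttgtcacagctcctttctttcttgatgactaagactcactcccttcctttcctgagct
Tnfsf10 (chr3:27316977-27317076, plus strand): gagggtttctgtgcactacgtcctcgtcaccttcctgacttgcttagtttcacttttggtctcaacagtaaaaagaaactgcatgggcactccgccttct

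The motifs were the core of the interferon-stimulated response element (GAAA, any 2 bases, GAAA), the gamma-activated sequence bound by STAT factors (TTCNNNGAA), the GC box (GGGCGG) and the NF-kB motif, each searched on both strands. The last 2 were added after matches to the others had been seen. The first capitals in Fas match the gamma-activated sequence, and the second are a GC box, as are the capitals in Ripk3. A second gamma-activated match lay in Tnfrsf1a, at positions -244 to -236 from the RefSeq start (window stretch chr6:125349473-125349512, plus strand). The gene as annotated in GENCODE M21 begins earlier, at 125349362, so this match lies inside it.
Tnfrsf1a: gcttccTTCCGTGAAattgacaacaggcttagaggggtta
The gamma-activated letters were thus in 2 of the 7 member windows, Fas and Tnfrsf1a, and in 9.55% of the 27025 genes with a window. The interferon-stimulated element was in 0 of the 7 members and in 3.99% of all genes, the NF-kB motif in 0 of 7 and 9.55%, and the GC box in 2 of 7 and 38.2%. For comparison, 13 of the 27 interferon-induced genes listed further on that have a window hold the interferon-stimulated element and 8 the gamma-activated sequence. The GC box is in 13 of these 27 and the NF-kB motif in 6. A match is a run of letters and was not measured as a bound site.

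Libraries held 35360991 to 51008737 counts, so that 3 counts corresponded to between 0.0588 and 0.0848 CPM, the reads of a gene scaled to a common library total, and the lowest member count in any library was 7. This limit covers counting error only. The depletion label was matched by the data: all 10 stellate markers examined were lower in depleted livers, and their summed level was 15.4 to 70.6 CPM against 295 to 783 CPM in controls, with Des at 0 in 3 of the 4 depleted livers, Colec10 and Ngfr in 2 and Colec11 in 1. The highest of these, 70.6 CPM, was in depleted replicate 4. Hepatocyte markers dominated every library, as the tissue label says. Control replicate 6 and hepatectomised replicate 2 stood apart in having the lowest summed Kupffer cell markers (88.6 and 97.5 CPM, against 385 to 2508 CPM in the other 11) and sinusoidal endothelial markers (75.0 and 79.6 CPM, against 180 to 397 CPM). Results are therefore also given without these libraries where a call depends on them.

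On the scale of CPM per kilobase of exon, which allows genes to be compared, the 2 most abundant members in control livers were Tnfrsf1a and Gsdmd, at 31.3 ± 2.68 and 21.9 ± 2.73 (SD, n = 6). Casp8 followed at 10.5 ± 1.98 and Fas at 7.57 ± 1.78, with overlapping ranges. Mlkl, Zbp1, Tnfsf10 and Casp1 lay between 2.65 and 1.94, and neighbours in this order overlapped. Ripk3, at 0.653 ± 0.262, was below Casp1 in all 6 livers, and Tnfrsf10b was lowest at 0.154 ± 0.185. Of the 3 receptors, Tnfrsf1a and Fas thus lay above the necroptosis kinase Ripk3 and Tnfrsf10b below it. In depleted livers the order changed in its middle: Zbp1 rose from the sixth to the third place, at 30.4 ± 8.91 (SD, n = 4), overlapping Gsdmd at 33.2 ± 10.4, and Casp1, at 12.9 ± 2.53, overlapped Casp8 at 11.3 ± 1.55. After hepatectomy Tnfsf10 had the lowest mean, at 0.435 ± 0.213 (SD, n = 3), but it overlapped Tnfrsf10b and was below it in 1 of 3 livers, replicate 2.

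**Figure D1:**
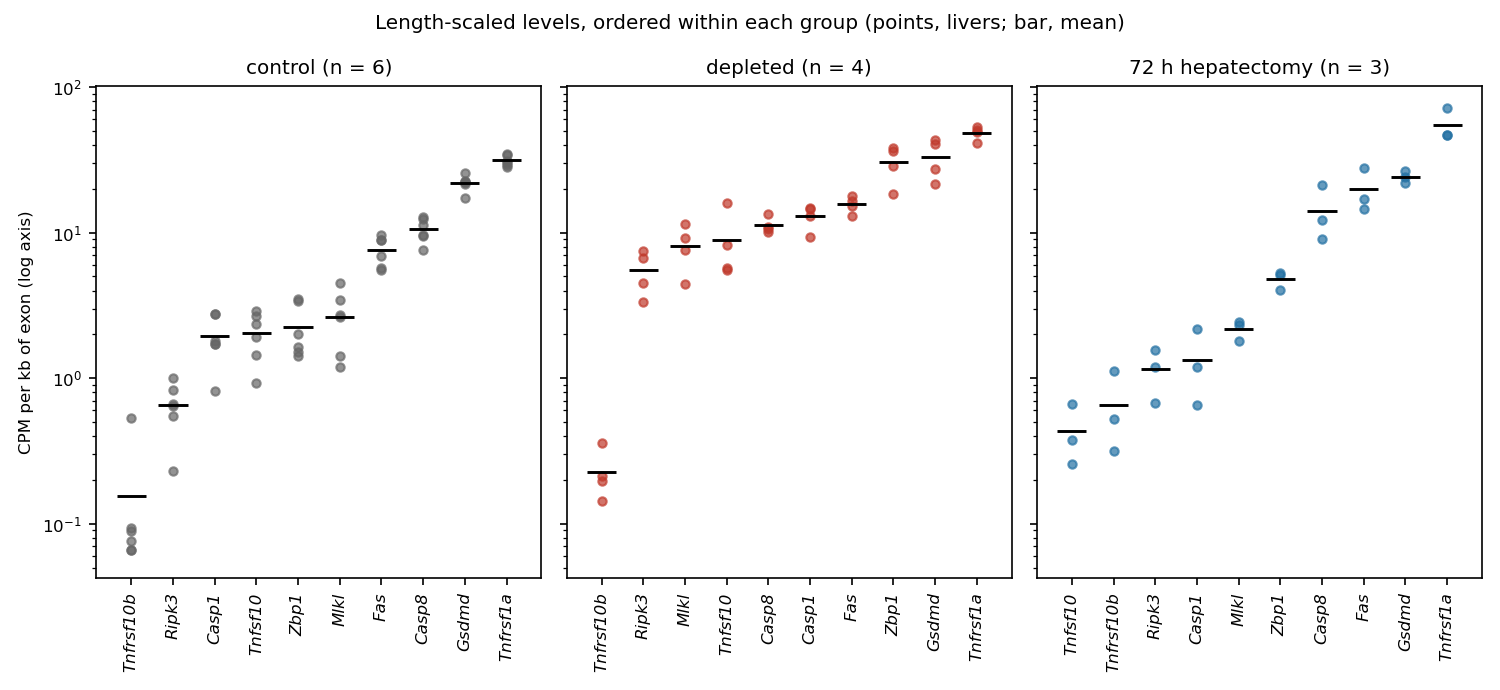
Level of each gene in CPM per kilobase of exon (log axis), ordered by mean within control (n = 6), depleted (n = 4) and hepatectomised (n = 3) livers. Points are livers and bars are means. Tnfrsf1a leads in each group, Zbp1 takes the third place in depleted livers, and after hepatectomy Tnfsf10 and Tnfrsf10b overlap at the low end.

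The first comparison asked how these genes differed when stellate cells were depleted. Of the 10 members, 8 were higher in depleted than in control livers (edgeR quasi-likelihood test, adjusted p under 0.05 over all genes), and 0 were lower. Over all genes tested 18.9% were higher and 15.0% lower, 33.9% in all (55.7% of calls higher, 66.2% with library size alone), and the median log2 fold change was 1.31 for the members and -0.03 for all genes. The largest rises were those of the necroptosis sensor Zbp1 (13-fold), the kinase Ripk3 (8.31-fold) and the pyroptosis caspase Casp1 (6.53-fold). The CPM ranges of the groups did not overlap for 6 members, against 16.5% of all genes in this direction and 28.4% in either. At an unadjusted p under 0.05 the members again numbered 8, and all genes 43.6%. The same 8-gene count was found without control replicate 6 and depleted replicate 4 together, and it was between 7 and 9 with each library left out.

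Among the receptors, Fas (chromosome 19, 34290666 to 34327772, GRCm38) had 9.94 CPM in the lowest, 14.2 in the median and 17.3 in the highest control. In depleted replicates 1 to 4 it had 27.5, 23.5, 29.7 and 31.9 CPM. Every depleted liver was above every control, with a log2 change of 1.06 ± 0.21 (SE, edgeR adjusted p = 0.0021). Tnfrsf1a (chromosome 6, 125349362 to 125362484), the main signalling receptor for tumour necrosis factor, ranged in controls from 73.0 to 90.3 CPM with a median of 79.3. It had 128, 106, 138 and 131 CPM in depleted replicates 1 to 4, again without overlap, and the log2 fold change was 0.66 ± 0.14 (SE, edgeR adjusted p = 0.00243). Both receptors thus rose in every depleted liver, by smaller folds than Ripk3 or Zbp1.

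Tnfsf10 (chromosome 3, 27317028 to 27342427) encodes the ligand TRAIL. Controls had 4.86 CPM at the lowest, 11.2 at the median and 15.3 at the highest, and depleted replicates 1 to 4 had 83.8, 43.5, 29.3 and 29.9 CPM. All 4 exceeded every control, by a log2 change of 2.0 ± 0.38 (SE, edgeR adjusted p = 0.00149), and depleted replicate 1 was higher than the other 3. Tnfrsf10b (chromosome 14, 69767472 to 69784411), the mouse TRAIL receptor, was the least abundant member, at 0.621, 0.672, 0.454 and 1.14 CPM in the depleted livers against a control median of 0.262 CPM. Its difference did not pass, at 0.45 ± 0.63 (SE, edgeR adjusted p = 0.623), and 1 control decided this. Control replicate 4 had 1.69 CPM and the other 5 controls 0.210 to 0.297 CPM. Without control replicate 4 the log2 fold change was 1.58 (edgeR adjusted p = 0.0233).

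Casp8 (chromosome 1, 58795374 to 58847503), the initiator caspase that also restrains necroptosis, differed little. It had 21.8 to 36.8 CPM in controls (median 30.3) and 31.5, 29.3, 30.5 and 39.2 CPM in depleted replicates 1 to 4, and the ranges overlapped. The log2 difference, 0.14 ± 0.22 (SE), was within the error between livers (edgeR adjusted p = 0.669), and it lay between 0.04 and 0.25 under the alternatives run.

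The necroptosis genes downstream and upstream of RIPK3 were higher together. Ripk3 (chromosome 14, 55784995 to 55788865) had 0.450 to 1.96 CPM in controls with a median of 1.28, and 8.85, 6.61, 13.2 and 14.8 CPM in depleted replicates 1 to 4. The lowest depleted liver was above the highest control by more than the whole control range, and the log2 fold change was 3.06 ± 0.37 (SE, edgeR adjusted p = 6.32e-05). Mlkl (chromosome 8, 111311797 to 111338177), the membrane-breaching effector, had 2.76, 6.13 and 10.4 CPM in the lowest, median and highest control and 21.2, 10.1, 17.4 and 26.4 CPM in the depleted livers. Depleted replicate 2 fell within the control range and the other 3 lay above it. Its log2 fold change was 1.55 ± 0.30 (SE, edgeR adjusted p = 0.00172), and it only just passed among females alone (1.23, edgeR adjusted p = 0.0497). Zbp1 (chromosome 2, 173206612 to 173218923) had 5.04 to 12.4 CPM in controls, with a median of 6.44, and 128, 65.2, 102 and 135 CPM in depleted replicates 1 to 4. No depleted liver was near the controls, and the log2 change of 3.70 ± 0.27 (SE) had an edgeR adjusted p of 2.83e-06. By p-value Zbp1 ranked 42 among the 13831 genes, the first of the members.

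Of the pyroptosis pair, the protease changed more than the pore. Casp1 (chromosome 9, 5298517 to 5307265) had 1.23, 2.64 and 4.16 CPM in the lowest, median and highest control and 19.4, 14.0, 21.7 and 22.2 CPM in depleted replicates 1 to 4. The groups did not overlap, and the log2 fold change was 2.71 ± 0.34 (SE, edgeR adjusted p = 8.68e-05). Gsdmd (chromosome 15, 75862327 to 75867408) had 30.5 to 45.5 CPM in controls (median 39.4) and 48.3, 38.6, 72.0 and 77.2 CPM in the depleted livers. Depleted replicate 2 lay within the control range, and the log2 fold change was 0.66 ± 0.17 (SE, edgeR adjusted p = 0.00924). The Gsdmd call was lost without depleted replicate 3 (0.59, edgeR adjusted p = 0.064) and among females alone (0.59, edgeR adjusted p = 0.163). Depleted replicate 2 was the lowest depleted liver for 8 members, all but Tnfsf10 and Tnfrsf10b.

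**Figure D2:**
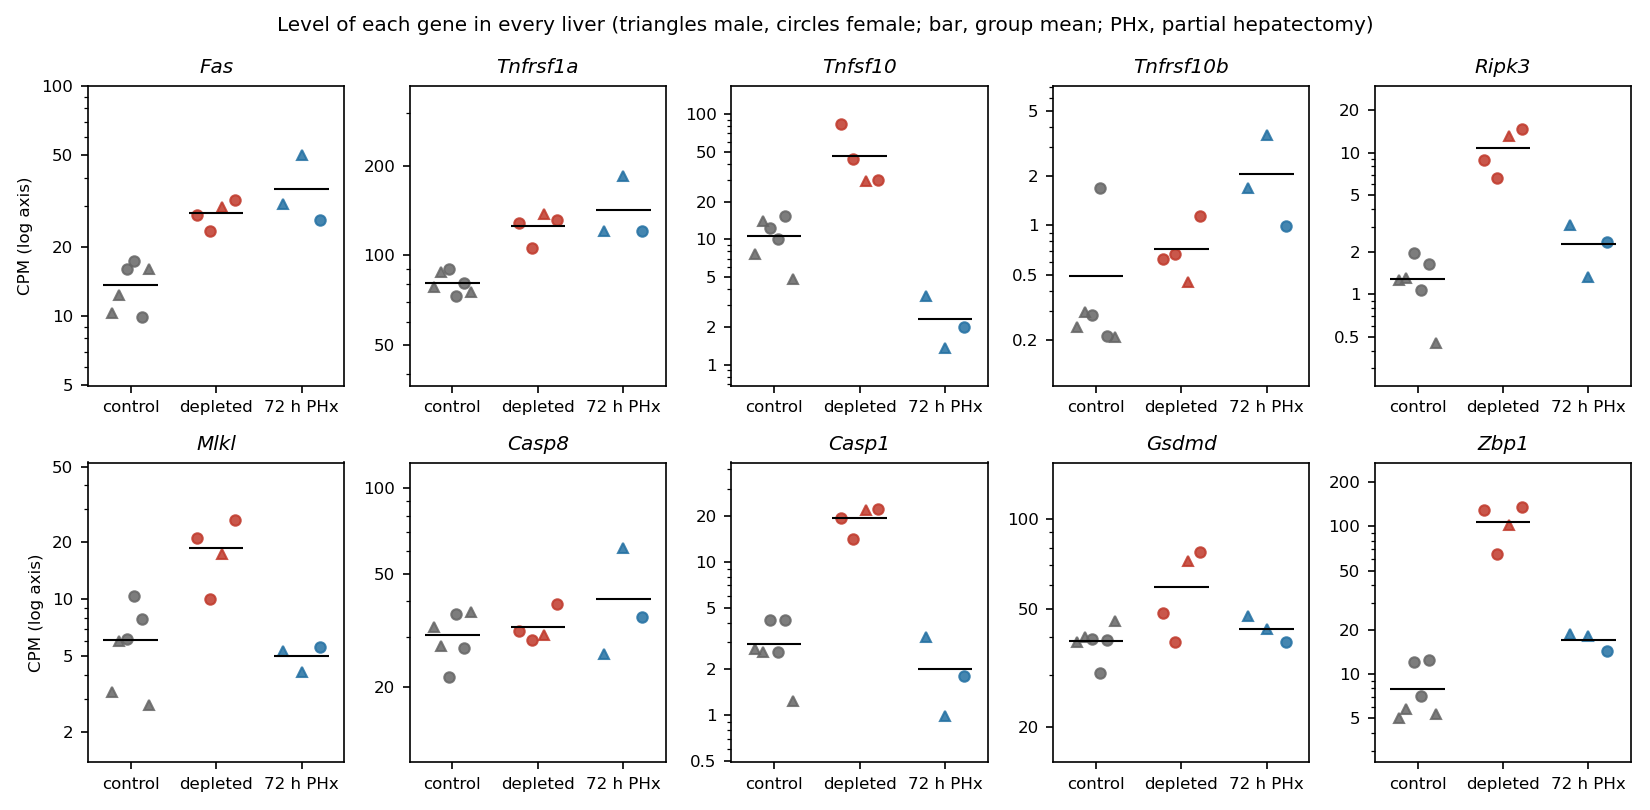
CPM (log axis) of each gene in every control, depleted and hepatectomised (72 h PHx) liver, with triangles for males, circles for females and a bar at the group mean. Ripk3, Casp1 and Zbp1 stand apart in the 4 depleted livers, Tnfsf10 is high in depleted and low in hepatectomised livers, and control replicate 4 is the high control point for Tnfrsf10b at 1.69 CPM.

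Markers of immune cells moved with these genes. In depleted livers 9 of 10 monocyte and macrophage markers, 10 of the 10 tested neutrophil markers (of 11 listed), 10 of 10 T cell, 7 of 7 NK cell, 5 of 5 B cell and 6 of 10 Kupffer cell markers were higher, and none of these was lower by the edgeR test. The Kupffer cell markers went both ways: Marco rose from 11.4 ± 6.15 (SD, n = 6) to 297 ± 92.2 CPM (SD, n = 4), whereas Clec4f had 111 ± 49.0 CPM in controls and 18.8 ± 33.8 CPM in depleted livers (-3.00 ± 1.26, SE, edgeR adjusted p = 0.0872). In 4 alternatives, among them limma-voom and females alone, 1 Kupffer cell marker was called lower. Summed monocyte and macrophage markers were 1022 to 1685 CPM in depleted livers against 37.1 to 312 CPM in controls, neutrophil markers 189 to 389 against 0.780 to 4.92, T cell markers 49.2 to 114 against 3.33 to 6.11, NK cell markers 25.8 to 61.3 against 0.720 to 3.33, B cell markers 26.9 to 48.3 against 4.20 to 7.98, and Kupffer cell markers 1177 to 2508 against 88.6 to 683. Several neutrophil markers were at 0 in controls, Ly6g in all 6, Camp in 5 and Mpo in 4, and none was at 0 in a depleted liver. Ly6g, Camp, the T cell marker Cd5 and the NK cell markers Eomes and Klra8 passed the filter only through the depleted livers. The counts of neutrophil, T and NK cell markers called higher were thus partly fixed by the filter. Sinusoidal endothelial markers were higher for 1 of 7, and their sums overlapped. Of 8 hepatocyte markers 1 was higher, Pck1 (0.91 ± 0.23, SE), and 1 was lower. The lower one, Cyp2e1, fell from 10634 ± 1466 (SD, n = 6) to 1117 ± 252 CPM (SD, n = 4). Its log2 fold change was -3.24 ± 0.26 (SE, edgeR adjusted p = 4.65e-06). Genes that overlap Fas, Mlkl or Casp8 in the annotation (Gm27818, Gm45712 and Gm37760) were not counted in the table, so their reads cannot be told apart from those of the members. In whole-liver RNA, more cells of a type and more transcript per cell cannot be told apart, and the part of these cells in the rises of Ripk3, Casp1 and Zbp1 was not tested. Within the controls, replicate 6 was lowest in summed Kupffer cell, monocyte, endothelial, stellate and hepatocyte markers. It was the lowest control for Ripk3, Casp1, Mlkl, Tnfsf10 and Tnfrsf10b and the highest for Casp8 (36.8 CPM) and Gsdmd (45.5 CPM), and it was neither for Fas, Tnfrsf1a and Zbp1.

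**Figure D3:**
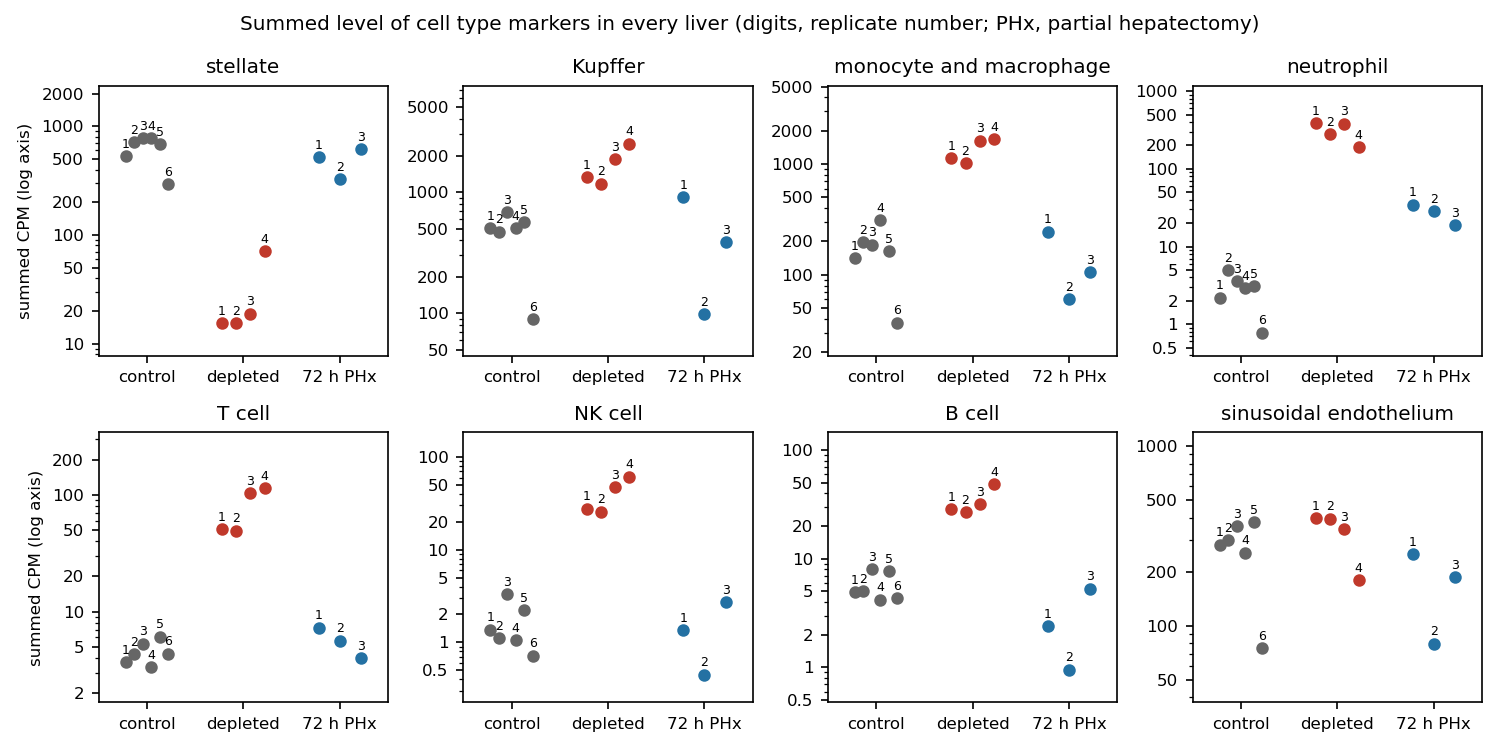
Summed CPM (log axis) of cell type markers in every liver, by group, with digits giving the replicate number. Monocyte and macrophage, neutrophil, T, NK and B cell markers are higher in all 4 depleted livers, stellate markers are lower, and control replicate 6 and hepatectomised replicate 2 are low in Kupffer cell and endothelial markers.

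The ligands and further receptors of the family were examined from a fixed list of 12 genes, of which 11 were tested. In depleted livers 6 were higher and 1 was lower. Over all genes 18.9% were higher and 15.0% lower, beside which this list and those below are read. Fasl, the ligand of Fas, rose by a log2 change of 4.15 ± 0.69 (SE, edgeR adjusted p = 0.000578), from 0.0713 ± 0.0471 CPM (SD, n = 6), a level of about 3 counts, to 1.36 ± 0.478 CPM (SD, n = 4). Tnf rose from 0.285 ± 0.178 to 3.96 ± 2.55 CPM (log2 fold change 3.76 ± 0.55, SE). The receptors Fas and Tnfrsf1a were higher in the same livers. Fasl had only a few counts in control and hepatectomised livers and passed the filter on low counts only through the depleted livers. Its call is therefore not counted as support for a joint rise of ligand and receptor. Tnfrsf26, one of a cluster of near-identical decoy-type receptor genes between which reads could be shared, changed by 2.39 ± 0.55 (SE). Tnfrsf11b, which encodes the decoy receptor osteoprotegerin, fell from 4.22 ± 1.62 to 0.284 ± 0.538 CPM (log2 fold change -4.29 ± 1.00, SE, edgeR adjusted p = 0.00568).

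Of 13 adaptors and brakes of receptor signalling, 5 were higher and 0 lower, with a list median of 0.29. The share called was near the 33.9% called over all genes. The largest rise was that of Tnfaip3, the ubiquitin-editing brake A20 on NF-kB, from 3.14 ± 0.574 (SD, n = 6) to 25.8 ± 6.86 CPM (SD, n = 4). Its log2 difference was 3.05 ± 0.19 (SE, edgeR adjusted p = 6.26e-07). The inhibitors of apoptosis Birc3 and Birc2 changed by 1.01 ± 0.14 and 0.62 ± 0.09 (SE). The adaptors Fadd and Tradd, at -0.17 ± 0.15 and 0.00 ± 0.20 (SE), and Cflar, the caspase-8-like inhibitor, at -0.16 ± 0.19 (SE), did not pass. Without control replicate 6 and depleted replicate 4 the count was again 5.

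Of 13 genes of apoptosis execution and its control, 5 were higher and 1 lower in depleted livers, where 33.9% of all genes were called. Those higher by the most were Bcl2 (1.80 ± 0.25, SE), which opposes mitochondrial permeabilisation, Apaf1 (1.75 ± 0.32), the apoptosome scaffold, and Bak1 (1.50 ± 0.17), which permeabilises mitochondria. Genes that promote and oppose death were thus both among the 5. The executioner Casp6 fell from 35.5 ± 5.52 to 19.4 ± 0.805 CPM (log2 fold change -0.94 ± 0.17, SE). Without control replicate 6 and depleted replicate 4, 3 were higher and 1 lower. Of 7 necroptosis partners, 3 were higher: the Toll-like receptors Tlr4 (2.06 ± 0.41, SE) and Tlr3 (1.04 ± 0.19) and Adar (0.75 ± 0.10), an RNA editor that limits Z-form RNA. Ppm1b, a phosphatase, was lower (-0.48 ± 0.11, SE), and Ticam1, the adaptor that links Tlr3 to RIPK3, did not pass (0.08 ± 0.13, SE).

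Inflammasome genes were higher for 12 of 17, and 1 was lower, with a list median log2 fold change of 1.64. The largest rises were those of Mefv, which encodes the sensor pyrin (3.80 ± 0.45, SE), Pycard, the adaptor that links sensors to caspase-1 (3.68 ± 0.33, SE, edgeR adjusted p = 8.41e-06), and the sensor Nlrp1b (2.87 ± 0.60, SE). Pycard went from 0.954 ± 0.290 (SD, n = 6) to 11.9 ± 5.02 CPM (SD, n = 4). The lower gene was Nlrp6, at -0.76 ± 0.26 (SE, edgeR adjusted p = 0.0368), a call close to the threshold. It was lost in females alone, with library size alone, with the replicate block, and without any 1 of 6 livers, control replicates 1, 5 and 6 and depleted replicates 1, 3 and 4. Without control replicate 6 together with depleted replicate 4, 12 were higher and 0 lower. The interferon-induced list was higher for all 30 of its genes (median 2.53), led by Socs1 (5.84 ± 0.85), Gbp5 (5.48 ± 0.40) and Gbp2 (5.23 ± 0.51, SE), and 25 of the 30 passed among females alone. Earlier results on these data, in which interferon genes were seen to be high, were known when this list was written, so its direction is not independent evidence. Of 16 p53 targets, 4 were higher and 1 lower, a share near the 33.9% called over all genes. Cdkn1a, the cell cycle inhibitor p21, changed by 4.74 ± 0.53 (SE), Trp53inp1 by 2.33 ± 0.41, Btg2 by 2.20 ± 0.45 and Sesn2 by 0.76 ± 0.19, and Plk2 by -1.10 ± 0.26 (SE).

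Livers taken 72 h after hepatectomy were then set against the control livers used above. Of the 10 members, 3 were higher and 1 was lower by the edgeR test. Over all genes tested 6.06% were higher and 2.36% lower, 8.42% in all (72.0% of calls higher, 28.6% with library size alone), and the median log2 fold change was 0.59 for the members and -0.02 for all genes. Fas, Tnfrsf1a and Zbp1 were higher and Tnfsf10 was lower, and for these 4 the CPM ranges did not overlap. Over all genes 7.41% lay wholly above the controls and 6.25% below, 13.7% in all. At an unadjusted p under 0.05 there were 5 members, with Tnfrsf10b, and 24.3% of all genes. The count rested on few livers. It was 3 with the replicate number as a block, where 632 genes were called in all against 1164 without it. It was 2 without hepatectomised replicate 2, and 1, Fas, without control replicate 6 and hepatectomised replicate 2 together.

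Fas had 30.7, 50.1 and 26.2 CPM in hepatectomised replicates 1 to 3, all above the highest control at 17.3 CPM. The log2 fold change was 1.36 ± 0.23 (SE, edgeR adjusted p = 0.00476), and it passed under each alternative run, at 1.06 to 1.61. Tnfrsf1a had 121, 185 and 121 CPM, above the highest control at 90.3 CPM, with a log2 change of 0.79 ± 0.15 (SE, edgeR adjusted p = 0.00773). That call was lost with the replicate block (0.75, edgeR adjusted p = 0.0696) and without control replicate 6 and hepatectomised replicate 2 (0.55, edgeR adjusted p = 0.0605). Hepatectomised replicate 2 was the highest liver of the series for both receptors.

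Tnfsf10 fell where it had risen with depletion. It had 3.53, 1.35 and 1.99 CPM in hepatectomised replicates 1 to 3, below the lowest control at 4.86 CPM, and the log2 fold change was -2.11 ± 0.47 (SE, edgeR adjusted p = 0.0175). The call was lost without hepatectomised replicate 2 (-1.89, edgeR adjusted p = 0.0825) or 3 (-1.80, edgeR adjusted p = 0.0831). Its receptor Tnfrsf10b went the other way, at 1.68, 3.54 and 0.997 CPM against a control median of 0.262. The difference of 2.46 ± 0.73 (SE) fell just short (edgeR adjusted p = 0.0547), and it passed by DESeq2 (2.50, adjusted p = 0.00512) and limma-voom (2.24, adjusted p = 0.0339). Without control replicate 4, whose 1.69 CPM lay within the hepatectomised range, it was 3.01 (edgeR adjusted p = 0.00305). With the replicate block it was 2.49 (edgeR adjusted p = 0.0489), and without hepatectomised replicate 3 it was 3.22 (edgeR adjusted p = 0.0221). Without hepatectomised replicate 2 it was 1.73 (edgeR adjusted p = 0.228), and without that liver and control replicate 6 it was 1.59 (edgeR adjusted p = 0.291).

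Zbp1 was the necroptosis gene that passed after hepatectomy. It had 18.6, 18.0 and 14.2 CPM, above the highest control at 12.4 CPM, with a log2 change of 1.25 ± 0.30 (SE, edgeR adjusted p = 0.0224). This call was lost with the replicate block (1.31, edgeR adjusted p = 0.0772) and without any 1 of 5 livers, control replicates 1, 2 and 6 and hepatectomised replicates 1 and 2, with values of 1.12 to 1.20 and adjusted p-values up to 0.0881. Ripk3 had 3.09, 1.32 and 2.34 CPM, of which 2 lay above all controls, and did not pass (0.85 ± 0.41, SE, edgeR adjusted p = 0.22). Mlkl, with 5.32, 4.15 and 5.61 CPM, lay inside the control range (-0.11 ± 0.35, SE, edgeR adjusted p = 0.894), and the sign of its difference turned without control replicate 2 or 4 or hepatectomised replicate 3.

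Neither pyroptosis gene nor the initiator caspase passed. Casp1 had 3.23, 0.982 and 1.80 CPM (-0.46 ± 0.40, SE, edgeR adjusted p = 0.523), and the lowest value was in hepatectomised replicate 2. Gsdmd had 47.1, 42.7 and 38.7 CPM (0.10 ± 0.18, SE, edgeR adjusted p = 0.803), which became -0.11 when libraries were scaled to their size alone. Casp8 had 26.1, 61.4 and 35.2 CPM (0.40 ± 0.24, SE, edgeR adjusted p = 0.324). Hepatectomised replicate 2 was the highest of the 3 livers for Fas, Tnfrsf1a, Tnfrsf10b and Casp8 and the lowest for Tnfsf10, Ripk3, Mlkl and Casp1. It also had the fewest Kupffer cell, monocyte and endothelial marker transcripts of the 3, and their part in this split was not tested.

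**Figure D4:**
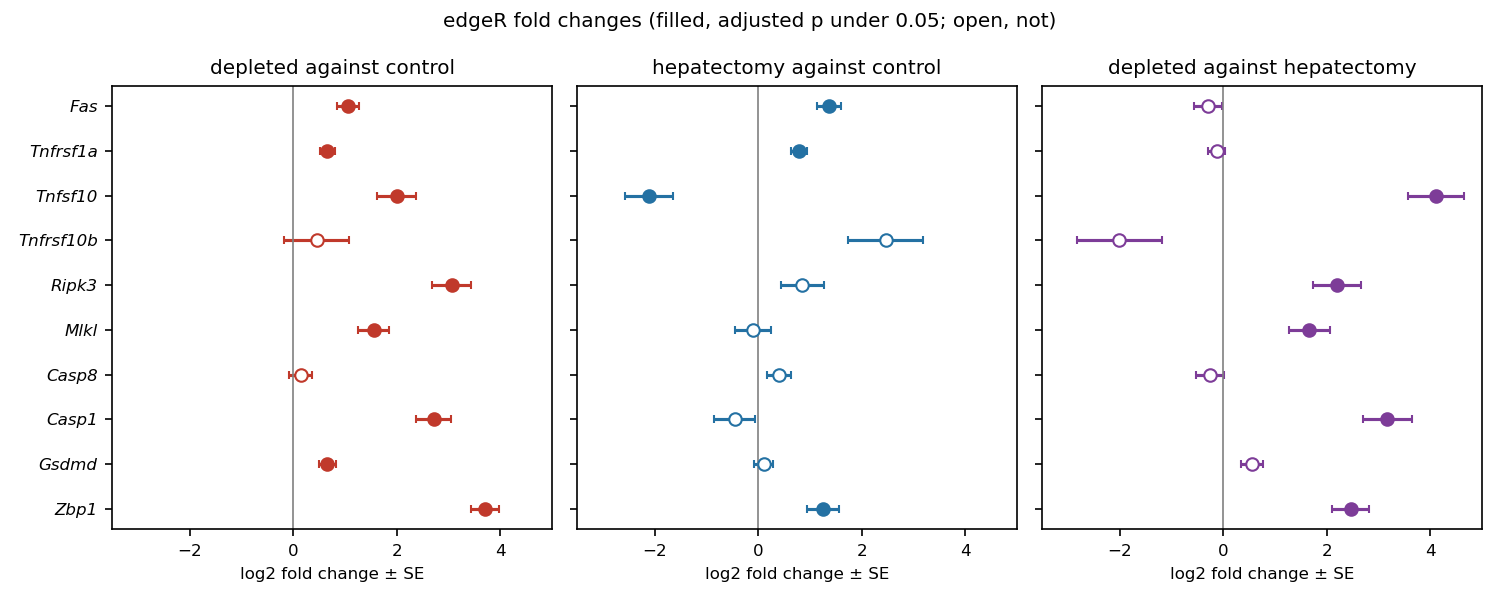
Log2 fold change of each gene with its standard error in the 3 comparisons, filled where the edgeR adjusted p was under 0.05. In depleted livers 8 genes lie above 0 and pass, after hepatectomy 3 pass above 0 and Tnfsf10 passes below it, and 5 genes pass in the direct comparison.

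The further genes of these pathways were examined from the same lists, beside 6.06% of all genes higher and 2.36% lower. Of the 11 ligands and receptors tested, Tnfrsf12a, the Fn14 receptor, rose from 4.23 ± 1.74 (SD, n = 6) to 14.5 ± 4.64 CPM (SD, n = 3), by 1.83 ± 0.32 (SE, edgeR adjusted p = 0.00512), and Tnfrsf1b, the second tumour necrosis factor receptor, by 0.69 ± 0.18 (SE). Neither passed with the replicate block. Fasl and Tnf, at 0.0748 and 0.127 CPM, had only a few counts a library and did not pass. Of the 13 adaptors and brakes 1 was higher, a share near the 8.42% called over all genes. This was Tnfaip3, at 8.23 ± 0.600 CPM and a log2 change of 1.36 ± 0.20 (SE, edgeR adjusted p = 0.00233). Of the 13 execution genes 2 were higher, Bcl2l1 (1.38 ± 0.23, SE), which opposes apoptosis, and Bax (0.94 ± 0.26), which promotes it, and 2 were lower, Bid (-0.84 ± 0.22) and Casp6 (-0.66 ± 0.18, SE). With the replicate block 1 was higher and 0 lower, so the calls of Bid and Casp6 were lost, and the same counts were found without control replicate 6 and hepatectomised replicate 2.

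By the edgeR test 0 of 7 necroptosis partners, 0 of 17 inflammasome genes and 0 of 30 interferon-induced genes passed after hepatectomy. At an unadjusted p under 0.05 there were 2, 1 and 5. DESeq2 called 1, 0 and 3 of them, limma-voom 0, 0 and 0, and the fit with the replicate block 0, 0 and 1, the last of them lower. Library size alone called 3, 0 and 2, all lower. Without control replicate 6 and depleted replicate 4 the counts were 1, 0 and 2, all lower. Without hepatectomised replicate 1, 1 inflammasome gene was lower. The list medians were -0.34, -0.21 and -0.18. Of the 16 p53 targets 8 were higher and 0 lower (median 0.60), with Cdkn1a at 6.17 ± 0.57 (SE, edgeR adjusted p = 0.00013), the receptor gene Eda2r at 3.29 ± 0.57 and Btg2 at 3.10 ± 0.49 (SE). The count was 4 with the replicate block. Without control replicate 6 and hepatectomised replicate 2 it was 3 higher and 1 lower. Markers of immune cells moved less here: 7 of 10 neutrophil markers and 2 of 10 monocyte and macrophage markers were higher, and summed neutrophil markers were 18.8 to 34.5 CPM. Of 5 B cell markers 1 was lower, Ms4a1 (-1.51 ± 0.41, SE, edgeR adjusted p = 0.0408). Of 5 cholangiocyte markers 2 were higher, Krt19 (2.10 ± 0.33, SE, edgeR adjusted p = 0.00388) and Krt7 (2.14 ± 0.39, SE, edgeR adjusted p = 0.00715), as was 1 of 8 hepatocyte markers. With the replicate block 5 neutrophil, 0 cholangiocyte and 0 hepatocyte markers were higher, and 0 B cell and 2 of 7 sinusoidal endothelial markers were lower. The part of these cells in the differences after hepatectomy was not tested. No T cell, NK cell or Kupffer cell marker passed by the edgeR test.

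**Figure D5:**
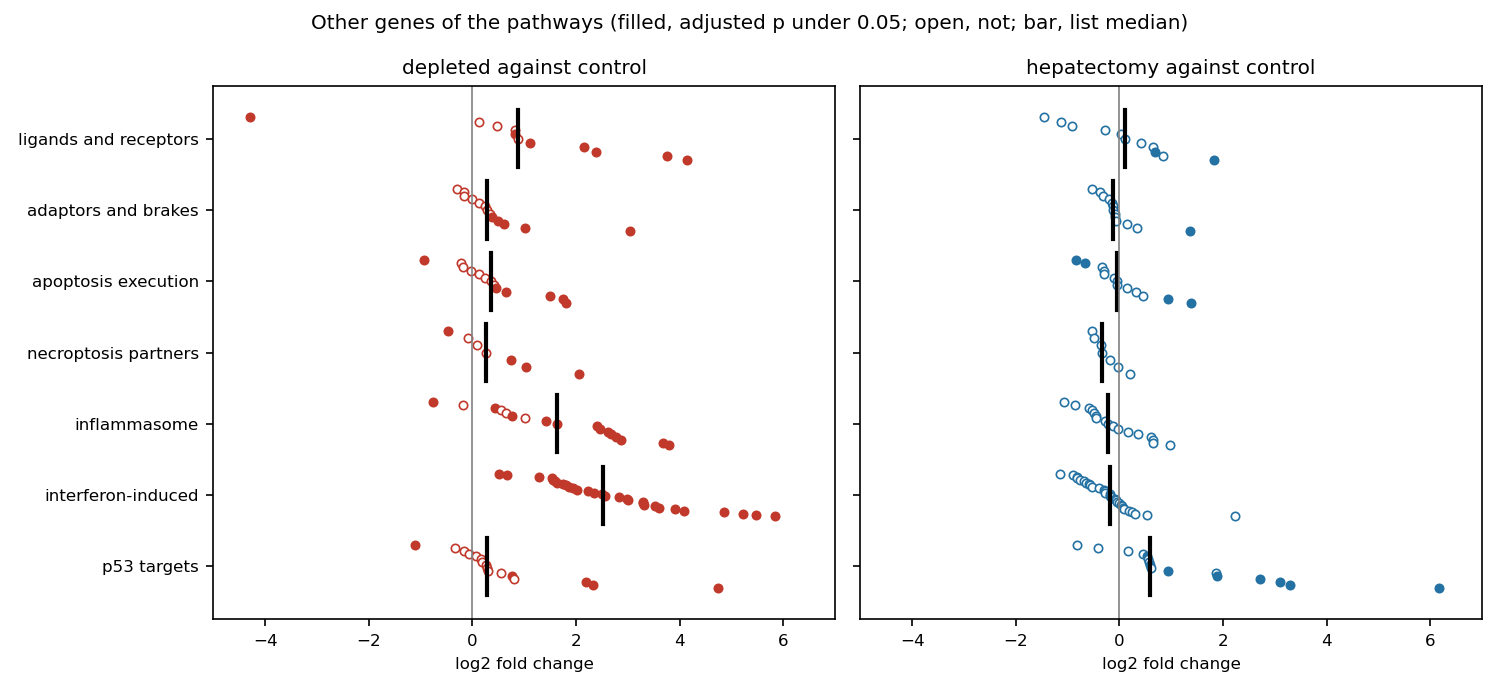
Log2 fold change of each further pathway gene in depleted (left) and hepatectomised (right) livers against control, filled where the edgeR adjusted p was under 0.05, with a bar at each list's median. All 30 interferon-induced genes and 12 of 17 inflammasome genes pass above 0 with depletion and none does after hepatectomy, where 8 of 16 p53 targets pass.

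The comparisons above share their controls, so the depleted livers were also set directly against the hepatectomised ones. Of the 10 members, 5 were higher in depleted livers and 0 lower, where 13.3% of all genes were higher and 10.1% lower, 23.4% in all (56.8% of calls higher, 83.6% with library size alone). These were Tnfsf10 (4.11 ± 0.54, SE, edgeR adjusted p = 0.000393), Casp1 (3.17 ± 0.47, edgeR adjusted p = 0.000613), Zbp1 (2.46 ± 0.35, edgeR adjusted p = 0.000542), Ripk3 (2.20 ± 0.47, edgeR adjusted p = 0.00527) and Mlkl (1.66 ± 0.40, edgeR adjusted p = 0.00968). For all 5 each depleted liver was above each hepatectomised liver, as was so for 18.1% of all genes, and 34.0% were apart in either direction. At an unadjusted p under 0.05 there were 7 members and 36.1% of all genes. Tnfsf10, at 46.6 ± 25.6 CPM (SD, n = 4) against 2.29 ± 1.12 CPM (SD, n = 3), was the member with the widest difference, 17.3-fold. Cell type markers moved in this comparison too: 9 of 10 monocyte and macrophage, 9 of 10 neutrophil, 9 of 10 T cell, 6 of 7 NK cell, 5 of 5 B cell and 3 of 10 Kupffer cell markers were higher in depleted livers, and 10 of 10 stellate and 2 of 5 cholangiocyte markers were lower. Of 8 hepatocyte markers 0 were higher and 1 was lower, Cyp2e1 (-2.66 ± 0.27, SE, edgeR adjusted p = 7.34e-05). The limit that the filter sets on the immune marker counts, given above, holds here too. The part of these cell types in the differences of the 5 members was not tested. The Mlkl call was lost without depleted replicate 3 (1.39, edgeR adjusted p = 0.0776) or hepatectomised replicate 3 (1.46, edgeR adjusted p = 0.06).

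The receptors and the initiator caspase did not pass in this comparison. Fas differed by -0.30 ± 0.27, Tnfrsf1a by -0.13 ± 0.17 and Casp8 by -0.26 ± 0.27 (SE). In edgeR their adjusted p-values were 0.447, 0.63 and 0.528. The sign of all 3 turned positive, at 0.02, 0.20 and 0.06, when libraries were scaled to their size alone, so no direction is given for them. Gsdmd was at 0.56 ± 0.21 (SE, edgeR adjusted p = 0.071) and passed with library size alone (0.91, edgeR adjusted p = 0.0144) and without depleted replicate 2 (0.69, edgeR adjusted p = 0.0183). Tnfrsf10b was at -2.01 ± 0.82 (SE, edgeR adjusted p = 0.0971). Every depleted liver was below the hepatectomised median of 1.68 CPM, but the ranges overlapped. Depleted replicate 4 had 1.14 CPM and hepatectomised replicate 3 had 0.997 CPM. The Tnfrsf10b difference passed by DESeq2 (-2.02, adjusted p = 0.0352), with the replicate block (-1.90, edgeR adjusted p = 0.0384) and without hepatectomised replicate 3 (-2.85, edgeR adjusted p = 0.0348). The 5 members called in this comparison were thus the TRAIL ligand, the necroptosis genes and the caspase-1 gene, and the calls of Gsdmd and Tnfrsf10b depended on the setting.

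Sex was part of the model. In controls, the 3 males lay below the 3 females for Mlkl (2.76 to 6.05 against 6.21 to 10.4 CPM) and Zbp1 (5.04 to 5.83 against 7.06 to 12.4 CPM), and the other 8 members overlapped. Over all genes 10.2% lay lower in males without overlap, and 20.2% were apart in either direction. The single depleted male, replicate 3, had values between those of depleted females for Zbp1 (102 CPM), Mlkl (17.4 CPM) and Ripk3 (13.2 CPM). It was the lowest depleted liver for Tnfsf10 (29.3 CPM) and Tnfrsf10b (0.454 CPM) and the highest for Tnfrsf1a (138 CPM).

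The genes most like each member were found by the root mean square difference of log2 CPM, centred on the control mean, over the 13 livers and 10747 candidate genes. Nearest to Ripk3 were Srgn (0.25), Il18bp (0.25) and Pkm (0.26), where the median candidate was 1.92 away. Nearest to Casp1 were Lrmp (0.19), Tfec (0.21) and Fgd2 (0.23), with a median of 1.75. Zbp1 was closest to Procr (0.42), Glipr2 (0.48) and Cd300lf (0.56). Mlkl was closest to Stk39, Xaf1 and Ppm1h, each at 0.35, of which Xaf1 is on the interferon-induced list. Tnfsf10 had no very close neighbour, the nearest being another member of its wider family, the receptor gene Tnfrsf14, at 0.67. Tnfrsf10b stood nearest to Mad2l1 (0.43), Cenpm (0.51) and Mcm6 (0.54), genes of the spindle checkpoint, the centromere and DNA replication. The control livers had 3.65 ± 1.69 CPM of Mad2l1 (SD, n = 6). Depleted livers had 6.66 ± 3.07 CPM (SD, n = 4), and hepatectomised livers 24.1 ± 17.9 CPM (SD, n = 3). Fas was nearest to Litaf (0.28), and Gsdmd, Tnfrsf1a and Casp8 were nearest to Rnaset2a (0.10), Grb2 (0.16) and Zw10 (0.17).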

How the data were processed

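Whole-liver RNA of 13 mice was sequenced from stranded mRNA libraries, per the labels' protocols. The authors deposited a single table of unnormalised counts, with the exon length of every gene. STAR 2.7.1a, SAMtools 1.15.1, featureCounts 1.6.4 and build mm10 are named per the submitters' processing notes. The strand setting and the handling of multi-mapped reads are not given in the sources used here, so reads of near-identical or overlapping genes may be shared between them. Symbols and GRCm38 coordinates came from GENCODE M21 for 21741 of 22048 IDs, and 99.94% of these lay at the same gene.

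Counts were tested in R 4.3.3 with the quasi-likelihood test of edgeR 4.0.16 (TMM scaling, filterByExpr, group and sex as terms, all 13 libraries, two-sided, Benjamini-Hochberg over 13831 genes, threshold 0.05), after a check on simulated counts. CPM values are TMM-scaled, with 2 as the prior count for log2 CPM. Alternatives were no sex term, the 2 groups alone, females alone, DESeq2 size factors, library size alone, DESeq2 1.42.0, limma-voom (limma 3.58.1), no filter, a replicate block and leaving out each library. The lowest median chi-square between libraries of a group was 4.60, so all were counted as separate. Deviations from group means in same-numbered hepatectomised and control livers, which are of the same sex, correlated across genes at 0.23, 0.11 and 0.52, so blocked values of this comparison stand beside the calls they change. The rule named all 10 members, up to 3 called genes per list, direction and comparison, preferring ranges that did not overlap, and the 3 nearest genes of a member. Other genes named were chosen after their values were seen. Members and lists were chosen with earlier results of these data known.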

Additional observations from a re-analysis of the deposited data

Results flagged for a closer look

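Of the 20 sets of control or depleted livers examined for the 10 genes, 1 held a library far from the others, where chance gives about 1 in 20. For Tnfrsf10b, the TRAIL receptor gene, control replicate 4 had 1.69 CPM (75 counts) and the next control 0.297 CPM, a gap of 0.941 of the group's range.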

How the results depend on the processing

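Over the 10 genes, 3 comparisons and the alternatives run, 661 of 700 values kept their direction and their side of the threshold, 17 lost the threshold, 11 gained it and 11 changed sign, all of the last among differences that had not passed. The count of members called was 7 to 9 with each library left out for depleted against control livers, 2 to 5 for hepatectomised against control and 4 to 6 for depleted against hepatectomised livers. Without control replicate 6 and hepatectomised replicate 2, chosen as an alternative after seeing the data, the second count was 1, and Tnfrsf1a and Casp8 changed sign between depleted and hepatectomised livers, both to 0.07. Of the other changes of sign, library size alone gave -0.11 for Gsdmd after hepatectomy, and 0.02 for Fas, 0.20 for Tnfrsf1a and 0.06 for Casp8 between depleted and hepatectomised livers. Leaving out 1 or 2 livers moved Mlkl after hepatectomy over -0.29 to 0.07, and, between depleted and hepatectomised livers, Tnfrsf1a over -0.26 to 0.07 and Casp8 over -0.48 to 0.09. Single livers left out gave Mlkl after hepatectomy 0.04 (control replicate 2), 0.01 (control replicate 4) and 0.07 (hepatectomised replicate 3), and, without hepatectomised replicate 2, 0.06 for Tnfrsf1a and 0.09 for Casp8 between depleted and hepatectomised livers. The cause was not tested. Over all genes, calls for hepatectomised against control livers numbered 1164 in the model used, 483 without hepatectomised replicate 2, 412 without that liver and control replicate 6, 692 and 742 without control replicate 1 or 2, 632 with the replicate block, 2192 with library size alone and 1939 by DESeq2. For depleted against control they were 4692, and 2695 in females alone and 2960 without depleted replicate 3. For depleted against hepatectomised livers they were 3236, and 2105 with those 2 groups alone and 1709 without depleted replicate 3. Library size alone moved the share of calls that were higher from 55.7% to 66.2% (depleted against control), from 72.0% to 28.6% (hepatectomised against control) and from 56.8% to 83.6% (depleted against hepatectomised), and the all-gene median to 0.08, -0.24 and 0.27 (log2).

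With the replicate number as a block, 8 members were called for depleted against control, 3 for hepatectomised against control and 6 for depleted against hepatectomised livers. The block changed 4 calls of members, all given above, and no other member call. Among the lists in depleted livers it left 4 ligands and receptors higher and 1 lower, 3 adaptors higher, 3 execution genes higher and 1 lower, 11 inflammasome genes higher and 0 lower, and 4 NK cell and 4 Kupffer cell markers higher. In hepatectomised livers 1 execution gene was higher. Library size alone gave 1 execution gene higher and 4 lower, and 3 necroptosis partners lower, after hepatectomy. With sex also removed, same-numbered hepatectomised and control livers correlated at 0.08, -0.19 and -0.05, and depleted and control livers at 0.07, -0.10, 0.42 and 0.08. Depleted and hepatectomised livers correlated at 0.16, 0.04 and 0.27. So few correlations cannot decide whether the numbers mark a shared batch or related animals, and the labels do not say. Whether depth limited the calls of members was not tested. The lowest counts in a library were 7 for Tnfrsf10b, 15 for Ripk3, 35 for Casp1 and 48 for Tnfsf10.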
